A study of Mus musculus with 2 samples.

Results

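The genes described here are 34 genes of the endoplasmic reticulum (ER) stress response and of the integrated stress response, out of 32285 genes in the count tables. They were picked by gene symbol, as ER chaperones, parts of the unfolded protein response and targets of ATF4. The UMI counts below are the measure the choice was made on, so they are given as a description with no test. All 34 symbols were found. Ddit3 is listed under a pair of gene identifiers, and the overlapping copy, ENSMUSG00000116429, had 0 UMIs in both libraries, which leaves ENSMUSG00000025408 as the Ddit3 counted here.

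The cells were lung cells sorted as CD45.2-negative, which removes most blood-derived cells, and read by droplet 3' single-cell RNA sequencing. There were 2 libraries, 1 from wild-type (WT) C57B6/J mice and 1 from mice labelled Plaur KO, which are written as Plaur–/– in the protocols and carry the same strain label. Plaur encodes the urokinase receptor uPAR. Mice of both genotypes, 8 of each in the series, were sensitised on days 0 and 7 with lipopolysaccharide (LPS) and ovalbumin (OVA) and were challenged with OVA aerosol on day 14, so no unchallenged lung is compared. How many mice each library held is not given, the deleted part of Plaur is not given, and the cell type label of both libraries reads total lung cell lysate. With 1 library per genotype no difference below has a replicate check, and genotype cannot be told apart from anything else that differed between the libraries.

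Proteins that enter the secretory pathway fold in the ER with the help of chaperones such as BiP, the product of Hspa5, and of enzymes that form disulphide bonds. When unfolded protein builds up, the membrane sensors IRE1, PERK and ATF6 start the unfolded protein response: IRE1 splices Xbp1 mRNA, ATF6 is cut to release a transcription factor, and PERK phosphorylates eIF2alpha, which slows translation and favours translation of ATF4. Other kinases also phosphorylate eIF2alpha, for example on amino acid shortage, so ATF4 and its targets form the integrated stress response. In the alveolus the AT2 cell secretes surfactant proteins through this pathway, and fibroblasts and mesothelial cells secrete matrix.

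After filtering, 10225 WT cells and 8934 KO-labelled cells remained, with medians of 4837 and 5538 UMIs per cell. The 34 genes took 244983 UMIs of the WT cells and 225874 of the KO-labelled cells. Cells fell into 36 clusters, of which 29 were named from preset markers, and 8 classes had at least 100 cells in each library. The largest class, AT2-like cells, had 3804 WT and 5809 KO-labelled cells. Cluster 7, led by Mgp, Col3a1, Saa3 and Col1a2, had mixed fibroblast markers and keeps its number. The libraries shared 30 cell barcodes. Plaur mRNA was counted in both libraries, at 475 CPM in WT and 240.1 CPM in KO-labelled aerocyte-like cells but at 2.23 and 17.4 CPM in AT2-like cells, so the transcript does not show the knockout and the second library is called KO-labelled. RNA of AT2 cells was more abundant outside its class in the KO-labelled library: all 10 AT2 markers stood higher there in 6 of the 7 other compared classes and 4 of 10 in the adventitial fibroblast-like class, with none at 0 in either library. Their summed share of UMIs in those 7 classes ran from 0.185% to 1.23% in the WT library and from 0.813% to 2.55% in the KO-labelled library. Airway secretory markers had a share of 0.168% in WT and 3.70% in KO-labelled venous-like cells, but a lower share in the KO-labelled library in the 7 other compared classes, for example 0.232% and 0.0291% in general capillary-like cells.

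Levels are CPM: the UMIs of a gene over all cells of a class in a library, scaled by the total UMIs of those cells. Each ratio is a log2 ratio of CPM, KO-labelled over WT, and its interval is an exact 95% interval for counting error only. A gene counts as measured in a class with at least 20 UMIs over both libraries, and as higher or lower when its CPM ratio passed 1.5-fold. In bulk sums of this kind, fewer cells making a transcript and less transcript per cell cannot be told apart.

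Chaperones of the ER had ratios above 0 in nearly every class, while the sensors did not share a direction. In AT2-like cells 4 of the 8 ATF4-side targets were lower past 1.5-fold, beside 8.14% of all genes. Over the 8 compared classes the 34 genes gave 231 measured pairs of gene and class, and 177 of them (76.6%) had a ratio above 0, beside 42.2% of the 78863 pairs of all genes. Past 1.5-fold, 37 of the 231 pairs were higher, beside 6.33% of all pairs, and 18 were lower, beside 10.8%. The interval lay above 0 in 106 pairs, beside 6.8% for all genes, and below 0 in 17 pairs, beside 13.3%. These genes were chosen with earlier results known, so the shares describe the set and lend it no further support.

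**Figure D1:**
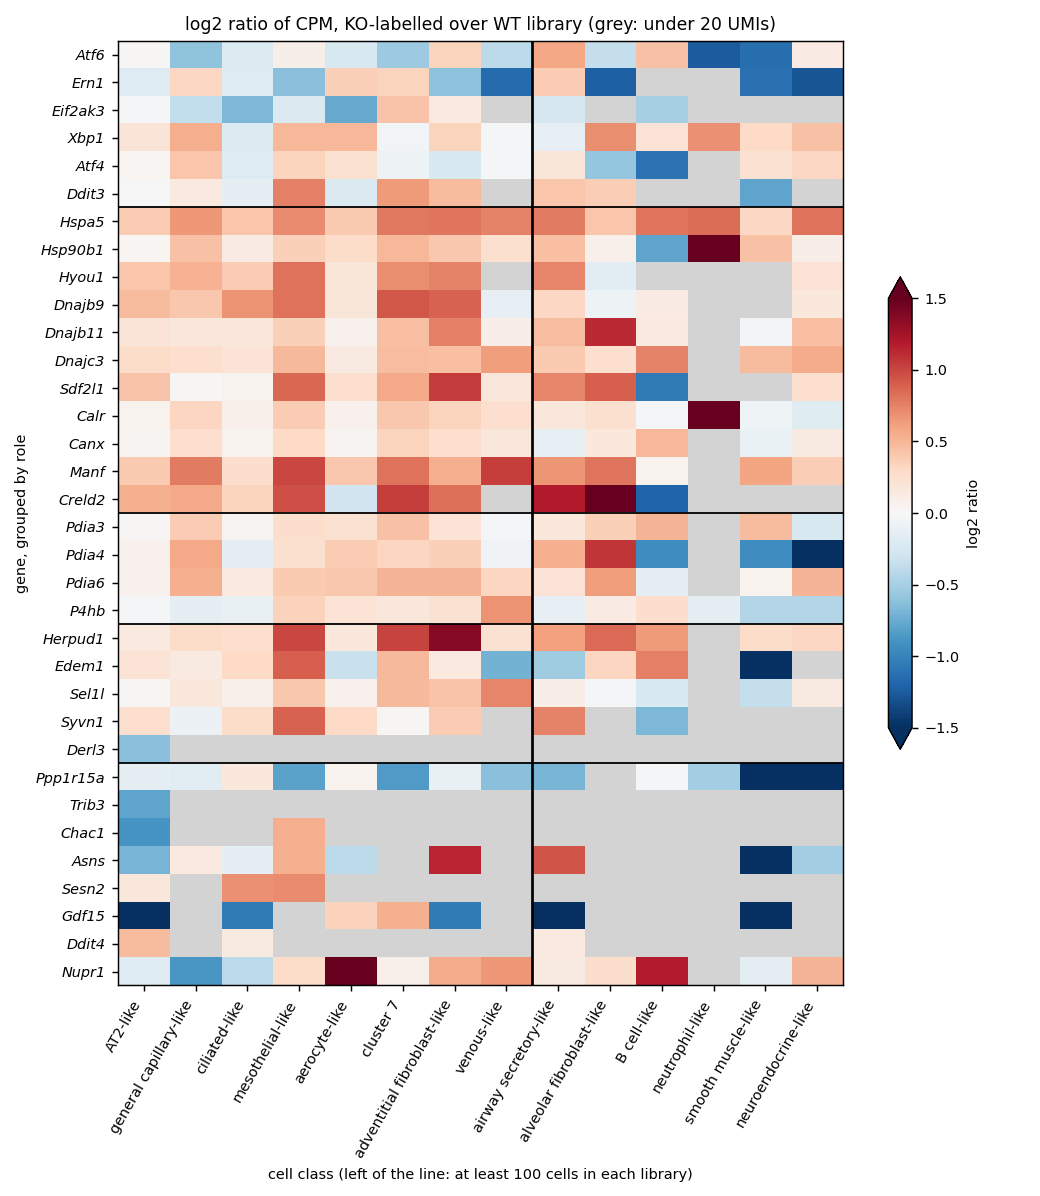
Log2 ratio of CPM, KO-labelled over WT, for each of the 34 genes (rows, grouped by role) in each of 14 cell classes (columns). Red is higher in the KO-labelled library, blue is lower and grey has under 20 UMIs. The Hspa5 row is red in all 14 classes.

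The member medians differed between classes. The median ratio of the measured members was 0.46 in cluster 7 (28 measured), 0.44 in mesothelial-like cells (30), 0.40 in adventitial fibroblast-like cells (29) and 0.27 in general capillary-like cells (28). It was 0.18 in aerocyte-like cells (29), 0.17 in venous-like cells (22), 0.08 in ciliated-like cells (31) and 0.05 in AT2-like cells (34). Medians of all genes in the same classes lay between -0.10 and -0.01, so the member median stood above the class median in each of the 8. Scaling by TMM factors would add 0.12 to every AT2-like ratio, which turns Eif2ak3, Ddit3 and P4hb from below to above 0 there. It would also take Creld2, Dnajb9 and Ddit4 upward past 1.5-fold and leave Asns and Derl3 short of it. The AT2-like counts past 1.5-fold given here thus depend on the scaling.

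In 4 of the 8 compared classes the share of members higher past 1.5-fold was well above that of all genes. In mesothelial-like cells 11 of 30 members were higher, beside 5.99% of all genes, and 2 lower, beside 15.7%. Cluster 7 had 7 of 28 higher, beside 8.6%, and 1 lower, beside 9.12%. The adventitial fibroblast-like class had 8 of 29 higher, beside 10.2%, and 2 lower, beside 14.5%. In venous-like cells 6 of 22 were higher, beside 9.41%, and 3 lower, beside 16.6%. For higher members, the other classes stayed near or below their background: 2 of 28 higher in general capillary-like cells, beside 6.37%, 2 of 31 in ciliated-like cells, beside 4.32%, 1 of 29 in aerocyte-like cells, beside 7.56%, and 0 of 34 in AT2-like cells, beside 2.24%. Lower members numbered 2 in general capillary-like cells, beside 8.97%, 2 in ciliated-like cells, beside 7.58%, 1 in aerocyte-like cells, beside 9.56%, and 5 in AT2-like cells, beside 8.14%.

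Hspa5, which encodes the main ER chaperone BiP and lies on chromosome 2 from 34771970 to 34777547 in GRCm38, had a ratio above 0 in all 14 classes, the 6 smaller ones included, although the interval held 0 in smooth muscle-like cells (0.31, -0.04 to 0.65). In AT2-like cells it had 9290 UMIs in WT and 18049 in KO-labelled cells, or 370.3 and 480.9 CPM (0.38, interval 0.34 to 0.41). Mesothelial-like cells had 1489 and 2442 CPM (0.71, 0.65 to 0.77), and cluster 7 had 1418 and 2450 CPM (0.79, 0.71 to 0.86). The adventitial fibroblast-like class, connective tissue cells around airways and vessels, had 1382 and 2407 CPM (0.80, 0.70 to 0.90). These 3, the highest of the 8 compared classes, lay close together in each library, at ratios whose intervals overlap. Ciliated-like cells had 918 and 1222 CPM (0.41, 0.36 to 0.47). The endothelial classes had lower levels: 389 and 613 CPM in general capillary-like cells (0.65), 632 and 829 in aerocyte-like cells (0.39) and 545 and 916 in venous-like cells (0.75). Within the KO-labelled library AT2-like cells had the lowest Hspa5 level of the 14 classes. The part of free RNA in these ratios was not tested.

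**Figure D2:**
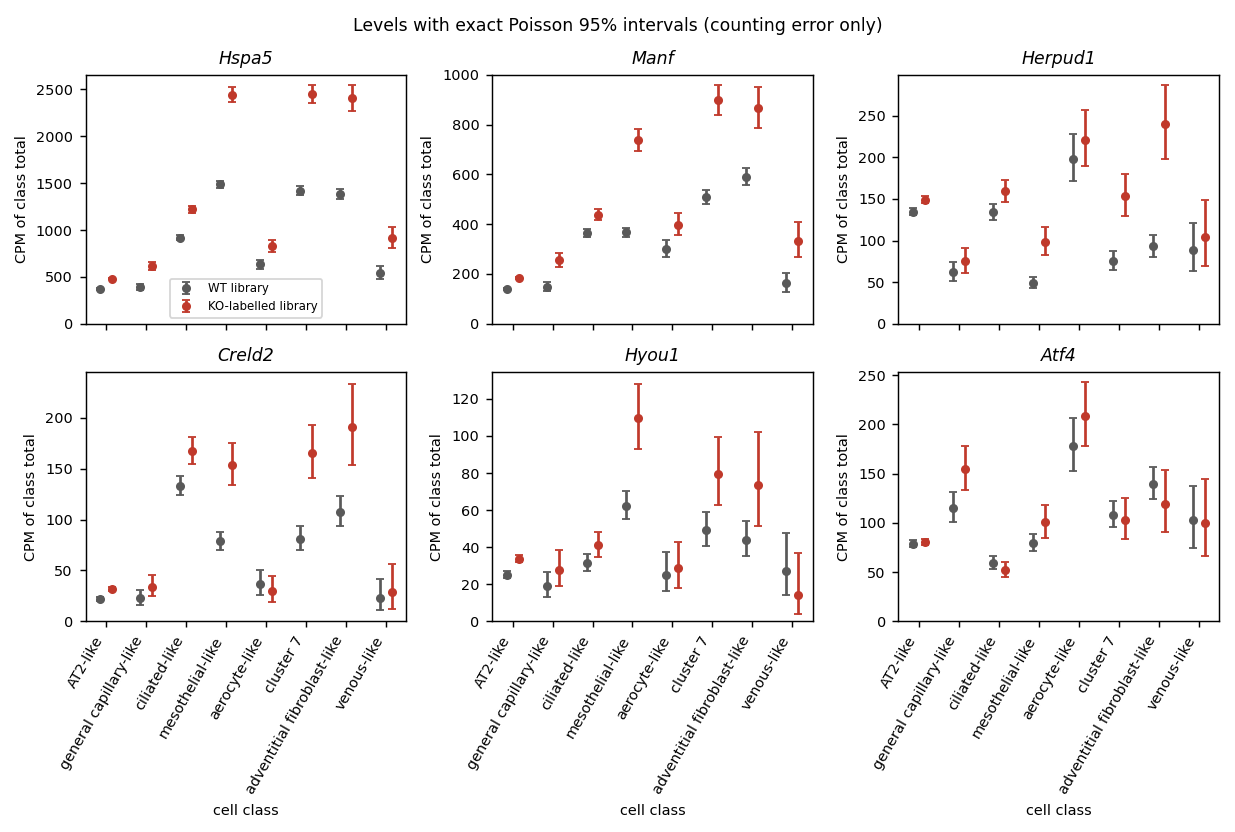
CPM of class total (y axis, from 0) of Hspa5, Manf, Herpud1, Creld2, Hyou1 and Atf4 in the 8 compared classes (x axis), with exact Poisson 95% intervals for WT (grey) and KO-labelled (red) libraries. For Hspa5 and Manf each KO-labelled point lies above its WT point in all 8 classes, and for Atf4 in 4 of 8.

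The 11 chaperones and co-chaperones, Hspa5 included, had ratios of different size. Of their 86 measured pairs of gene and class, 84 had a ratio above 0, beside 42.2% of all pairs. Past 1.5-fold, 23 were higher, beside 6.33%, and 0 were lower, beside 10.8%. The interval lay above 0 in 62, beside 6.8%, and below 0 in 0, beside 13.3%. The median ratio of the 86 pairs was 0.39. The 2 pairs at or below 0 were Creld2 in aerocyte-like cells, at 36.3 and 29.9 CPM (-0.28, -1.09 to 0.50), and Dnajb9 in venous-like cells, at 82.1 and 75.2 CPM (-0.13, -0.98 to 0.69). Both rested on 60 UMIs or fewer and their intervals held 0.

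Manf, a secreted ER-resident cytoprotective factor, was the only other member whose interval lay above 0 in all 8 compared classes. It stood at 367 CPM in WT and 738 CPM in KO-labelled mesothelial-like cells (1.01, 0.89 to 1.12) and at 509 and 898 CPM in cluster 7 (0.82, 0.69 to 0.94). Adventitial fibroblast-like cells had 591 and 865 CPM (0.55). In the endothelium it stood in general capillary-like cells at 148 and 255 CPM (0.78, 0.55 to 1.02), at 302 and 398 CPM in aerocyte-like cells (0.40) and at 162 and 333 CPM in venous-like cells (1.04, 0.58 to 1.51). Epithelial ratios were smaller, at 140 and 183 CPM in AT2-like cells (0.39) and 364 and 437 CPM in ciliated-like cells (0.26). Of 4911 genes measured in all 8 classes, 15 (0.305%) had an interval above 0 in each of them, Hspa5 and Manf among them.

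Creld2, a disulphide isomerase-like ER protein, had the highest ratio of the 34 members in AT2-like cells, at 22.0 CPM in WT and 31.8 CPM in KO-labelled cells (0.54, 0.39 to 0.68). It stood at 78.7 and 154 CPM in mesothelial-like cells (0.96), at 80.9 and 165 CPM in cluster 7 (1.03) and at 108 and 191 CPM in adventitial fibroblast-like cells (0.82). Ciliated-like cells had the highest WT level of Creld2, 133 CPM, and 168 CPM in the KO-labelled library (0.33). Sdf2l1, part of the BiP chaperone complex, was above 0 in all 8 classes, its ratio lowest in general capillary-like cells (0.02), with 13.5 and 18.2 CPM in AT2-like cells (0.43), 99.7 and 181 CPM in mesothelial-like cells (0.86) and 87.9 and 182 CPM in adventitial fibroblast-like cells (1.05).

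The ER DnaJ proteins stimulate the ATPase of BiP. Dnajb9 (ERdj4) stood at 75.3 and 104 CPM in AT2-like cells (0.47, 0.39 to 0.55) and at 16.1 and 25.6 CPM in ciliated-like cells (0.67, 0.24 to 1.10). In cluster 7 it had 63.1 and 121 CPM (0.93) and in adventitial fibroblast-like cells 70.9 and 131 CPM (0.89). Dnajc3 (p58IPK), which also inhibits PERK, had 184 and 222 CPM in AT2-like cells (0.27) and 178 and 276 CPM in venous-like cells (0.63, 0.16 to 1.10), with an interval above 0 in 7 of 8 classes. Dnajb11 (ERdj3) had 57.7 and 66.2 CPM in AT2-like cells (0.20), and in general capillary-like cells 89.9 and 101 CPM (0.17, -0.18 to 0.51). Hyou1, the nucleotide exchange factor of BiP, had 25.2 and 33.7 CPM in AT2-like cells (0.42, 0.28 to 0.56) and was above 0 in all 7 classes where it was measured.

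In AT2-like cells Hsp90b1, Calr and Canx had the smallest ratios of the 11 chaperones and co-chaperones. Over the 8 compared classes they did not stand apart, with median ratios of 0.32, 0.29 and 0.21 beside 0.18 for Dnajb11. Hsp90b1 (GRP94) stood at 402 CPM in WT and 411 CPM in KO-labelled AT2-like cells (0.03, 0.00 to 0.07). Its ratio was above 0 in all 8 classes and largest in cluster 7 (0.50). The lectin chaperones calreticulin and calnexin hold glycoproteins during folding. Calr had 188 and 196 CPM (0.05) and Canx 189 and 195 CPM (0.04) in AT2-like cells, and their largest ratios were 0.41 and 0.34, both in cluster 7. None of these 3 passed 1.5-fold in any compared class.

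Among the compared classes, the disulphide isomerases also leaned upward outside AT2-like and ciliated-like cells. Their median ratio was 0.04 in AT2-like and -0.03 in ciliated-like cells. Over the 8 compared classes 26 of 32 measured pairs were above 0, beside 42.2% of all pairs. Past 1.5-fold, 1 was higher, beside 6.33%, and 0 were lower, beside 10.8%. The interval lay above 0 in 18, beside 6.8%. In AT2-like cells Pdia3 had 199.6 and 202 CPM (0.02), Pdia4 53.7 and 56.4 CPM (0.07), Pdia6 219 and 229 CPM (0.06) and P4hb 163 and 161 CPM (-0.03). Pdia6 was above 0 in all 8 classes, with 300.5 and 436 CPM in general capillary-like cells (0.54) and 327 and 434 CPM in aerocyte-like cells (0.41, 0.19 to 0.63). In general capillary-like cells Pdia4 had 67.0 and 99.3 CPM (0.57, 0.20 to 0.93). P4hb, the isomerase that is also a subunit of collagen prolyl hydroxylase, passed 1.5-fold in venous-like cells alone, on 55 and 56 UMIs, at 125 and 200.4 CPM (0.68, 0.11 to 1.24).

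Genes of ER-associated degradation, which returns misfolded proteins to the proteasome, had 28 of 32 measured pairs above 0, beside 42.2% of all pairs. Past 1.5-fold, 6 were higher, beside 6.33%, and 2 were lower, beside 10.8%. Herpud1, a membrane component of the degradation complex, was above 0 in all 8 classes. It stood at 92.9 and 240 CPM in adventitial fibroblast-like cells, on 186 and 117 UMIs (1.37, 1.02 to 1.71), at 75.8 and 153 CPM in cluster 7 (1.01, 0.69 to 1.34) and at 49.1 and 98.4 CPM in mesothelial-like cells (1.002, 0.68 to 1.32). Ratios elsewhere lay between 0.15 and 0.28, with 135 and 149 CPM in AT2-like cells (0.15, 0.09 to 0.21). Edem1, which delivers misfolded glycoproteins, had 30.8 and 35.4 CPM in AT2-like cells (0.20) and 43.8 and 81.7 CPM in mesothelial-like cells (0.90, 0.55 to 1.24).

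The HRD1 ubiquitin ligase complex contains the ligase Syvn1 and its partner Sel1l. Syvn1 had 11.6 and 13.8 CPM in AT2-like cells (0.25, 0.04 to 0.47) and 15.1 and 27.9 CPM in mesothelial-like cells (0.88, 0.28 to 1.47). Sel1l had 115 and 116 CPM in AT2-like cells (0.01), was above 0 in all 8 classes, and passed 1.5-fold in venous-like cells alone, on 33 and 35 UMIs (0.74, 0.01 to 1.47). Derl3, a derlin of secretory cells, reached 20 UMIs in AT2-like cells alone of the 8 classes, with 32 and 31 UMIs (-0.63, -1.39 to 0.13), and its highest level was in B cell-like cells, at 23.9 and 14.4 CPM on 9 and 2 UMIs.

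Sensors and transcription factors showed no common direction at the mRNA level. Of 46 measured pairs 21 (45.7%) were above 0, beside 42.2% of all pairs. Past 1.5-fold, 2 were higher, beside 6.33%, and 6 were lower, beside 10.8%. The interval lay above 0 in 9, beside 6.8%, and below 0 in 7, beside 13.3%. Atf6 had 65.1 CPM in WT and 66.0 CPM in KO-labelled AT2-like cells (0.02), in general capillary-like cells 73.9 and 48.9 CPM (-0.60, -1.05 to -0.16) and 111 and 75.6 CPM in cluster 7 (-0.55, -0.94 to -0.17). Ern1, which encodes IRE1, had 37.6 and 33.0 CPM in AT2-like cells (-0.19, -0.31 to -0.07), 45.4 and 29.3 CPM in mesothelial-like cells (-0.63, -1.15 to -0.14) and 79.8 and 35.8 CPM in venous-like cells on 35 and 10 UMIs (-1.16, -2.34 to -0.11). Eif2ak3, which encodes PERK, had 19.6 and 19.3 CPM in AT2-like cells (-0.03) and 12.3 and 7.69 CPM in ciliated-like cells (-0.68, -1.36 to -0.03).

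Xbp1, the factor that IRE1 activates by splicing, had an interval above 0 in 5 classes and below 0 in 1. It stood at 110 and 126 CPM in AT2-like cells (0.19, 0.12 to 0.26), in general capillary-like cells at 176 and 255 CPM (0.54, 0.31 to 0.77) and at 98.8 and 139 CPM in aerocyte-like cells (0.50, 0.09 to 0.90). In cluster 7, where Hspa5 had one of its largest ratios, Xbp1 stood at 356 and 345 CPM (-0.05, -0.23 to 0.14). Counts of 3' ends do not separate spliced from unspliced Xbp1, and cleavage of ATF6 or phosphorylation of PERK and eIF2alpha is not measured by RNA.

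Atf4, whose control is largely translational, had 78.7 and 80.5 CPM in AT2-like cells (0.03, -0.05 to 0.12). Its interval lay above 0 in general capillary-like cells, at 115 and 154 CPM (0.42), and in mesothelial-like cells, at 79.6 and 100.5 CPM (0.34). Ddit3, which encodes CHOP, a transcription factor of prolonged stress, had 11.3 CPM in both AT2-like libraries (-0.22 to 0.22). Higher past 1.5-fold were its 18.2 and 30.7 CPM in mesothelial-like cells (0.76, 0.19 to 1.31) and its 36.9 and 57.2 CPM in cluster 7 (0.63, 0.12 to 1.14), the 2 higher pairs of the sensor group.

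Targets of the integrated stress response were split between classes and between genes. Of 35 measured pairs 18 were above 0, beside 42.2% of all pairs. Past 1.5-fold, 5 were higher, beside 6.33%, and 10 were lower, beside 10.8%. The interval lay above 0 in 4, beside 6.8%, and below 0 in 10, beside 13.3%. Ppp1r15a and Nupr1 were measured in all 8 classes, Asns in 6 and Gdf15 in 5, and Trib3 reached 20 UMIs in AT2-like cells alone.

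Gdf15, a secreted stress cytokine, had the lowest ratio of the 34 in AT2-like cells. It had 1473 UMIs in WT and 670 in KO-labelled cells, or 58.7 and 17.9 CPM (-1.72, -1.85 to -1.58). A UMI of Gdf15 was seen in 12.1% of WT and 5.08% of KO-labelled AT2-like cells, and in 3.84% (exact interval 3.25% to 4.50%) and 1.27% (1.002% to 1.60%) after thinning each cell to 1000 UMIs, which left out 4 KO-labelled cells. In general capillary-like cells Gdf15 had under 20 UMIs, so it did not count as measured. A UMI was seen there in 0.316% and 0.239% of cells, and in 0.0978% of 1022 and 0.147% of 678 thinned cells. Thinning left out 243 WT and 160 KO-labelled cells of that class. In AT2-like cells the top 5% of cells held 77.7% of the WT UMIs and 99.4% of the KO-labelled UMIs. The KO-labelled share follows from the 5.08% of cells with any UMI, so the 2 shares do not compare unevenness. A single cell held up to 63 UMIs in WT and up to 17 in the KO-labelled library. Ciliated-like cells had 12.6 and 6.04 CPM (-1.06, -1.82 to -0.36), and aerocyte-like cells had 32.3 and 41.1 CPM (0.35, -0.40 to 1.10).

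Asns, which makes asparagine, had 288 and 265 UMIs in AT2-like cells, or 11.5 and 7.06 CPM (-0.70, -0.95 to -0.46). Trib3, a pseudokinase that feeds back on ATF4, had 117 and 101 UMIs, or 4.66 and 2.69 CPM (-0.79, -1.19 to -0.40). Chac1, which degrades glutathione, had 47 and 38 UMIs, or 1.87 and 1.01 CPM (-0.89, -1.54 to -0.24). These 3 genes and Gdf15 were lower past 1.5-fold, beside 8.14% of all genes in AT2-like cells, and Derl3 was the fifth lower member of the class. With TMM factors Asns and Derl3 would fall short of 1.5-fold. Asns was below 0 in 3 of the 6 classes where it was measured: it also stood at 62.3 and 56.6 CPM in ciliated-like cells (-0.14, -0.39 to 0.11) and, above 0, at 14.4 and 20.9 CPM in mesothelial-like cells (0.54, -0.14 to 1.19). Its highest ratio was 1.14, in adventitial fibroblast-like cells. That class alone had Asns higher past 1.5-fold, with an interval that held 0.

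The remaining targets differed in direction. Ddit4, an inhibitor of mTORC1, had 9.80 and 13.6 CPM in AT2-like cells (0.47, 0.25 to 0.70). Sesn2, another inhibitor of mTORC1 signalling, had 10.5 and 11.9 CPM there (0.17, -0.05 to 0.40). Ppp1r15a, which encodes GADD34, the phosphatase subunit that reverses eIF2alpha phosphorylation, was above 0 in 2 of 8 classes. It had 46.7 and 42.3 CPM in AT2-like cells (-0.14, -0.25 to -0.03), 85.2 and 48.9 CPM in mesothelial-like cells (-0.80, -1.19 to -0.43) and 60.6 and 33.7 CPM in cluster 7 (-0.85, -1.44 to -0.29). In adventitial fibroblast-like cells it had 68.9 and 63.6 CPM (-0.12, -0.73 to 0.45), an interval that holds 0 and overlaps those of the other 2. Immediate early genes, which tissue digestion can also induce and which share many stimuli with Ppp1r15a, were lower past 1.5-fold for 4 of 18 measured in mesothelial-like cells, beside 15.7% of all genes, for 8 of 18 in cluster 7, beside 9.12%, and for 6 of 18 in adventitial fibroblast-like cells, beside 14.5%. Their part in the Ppp1r15a ratios was not tested.

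Nupr1, a small stress-inducible chromatin protein, had a wide range of levels across classes. In the WT library it ran from 5.04 CPM in aerocyte-like cells to 901 CPM in cluster 7. It had 333 and 291 CPM in AT2-like cells (-0.19, -0.24 to -0.15), 792 and 598 CPM in ciliated-like cells (-0.41, -0.48 to -0.33), 718 and 867 CPM in mesothelial-like cells (0.27) and 496 and 728 CPM in adventitial fibroblast-like cells (0.55, 0.38 to 0.73). The 2.37 of aerocyte-like cells rested on 5 and 21 UMIs.

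**Figure D3:**
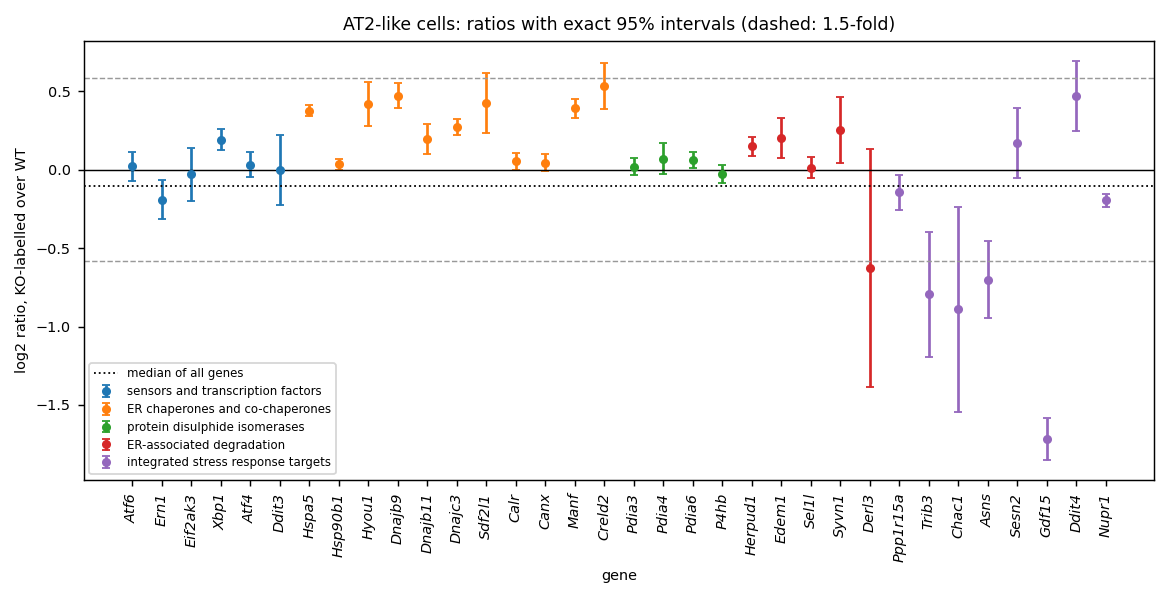
Log2 ratio of CPM in AT2-like cells (y axis), KO-labelled over WT, for each of the 34 genes (x axis, coloured by role) with exact 95% intervals. Dashed lines mark 1.5-fold and the dotted line the median of all genes, -0.10. No member passes the upper dashed line, and Gdf15, Chac1, Trib3, Asns and Derl3 lie below the lower one.

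AT2-like cells consisted of 7 clusters. The Hspa5 ratio was near 0 in some of them, whereas the Gdf15 and Asns ratios were below 0 in each. Hspa5 was highest in the KO-labelled cells of cluster 8, marked by Cxcl3 and Cxcl5, with 435 CPM in WT and 696 CPM in KO-labelled cells (0.68, 0.57 to 0.79). Cluster 11, marked by Ly6i, had 376 and 624 CPM (0.73, 0.59 to 0.87). Clusters 1 and 4 had 360 and 490 CPM (0.44) and 391 and 544 CPM (0.48). In cluster 0, the largest, the levels were 318 and 354 CPM (0.15, 0.08 to 0.23), and in cluster 3, where Ager and Aqp5 were among the leading genes, they were 409 and 407 CPM (-0.01, -0.10 to 0.08). Cluster 15 had 429 and 435 CPM (0.02). Whether these ratios differ between clusters beyond library variation was not tested.

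The Gdf15 ratio was below 0 in all 7 AT2-like clusters, with values from -2.19 to -0.51. It was most abundant in WT cells of cluster 3, at 114 CPM against 31.0 CPM (-1.88, -2.14 to -1.62), and the interval held 0 in cluster 15 alone. Asns was also below 0 in all 7, from -0.92 to -0.16, although its interval held 0 in clusters 8, 11 and 15. Hyou1, Dnajb9, Dnajc3, Creld2 and Ddit4 were above 0 in all 7. The clusters were set on both libraries together without the 34 genes.

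**Figure D4:**
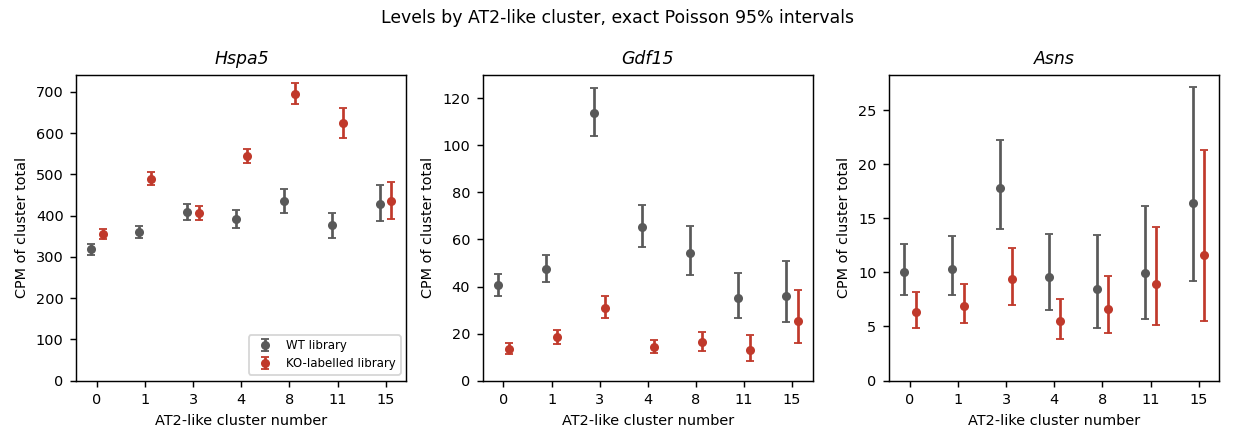
CPM of cluster total (y axis, from 0) of Hspa5, Gdf15 and Asns in the 7 AT2-like clusters (x axis, by number), with exact Poisson 95% intervals for WT (grey) and KO-labelled (red) cells. The Gdf15 and Asns points of the KO-labelled library lie below the WT points in all 7 clusters, and the Hspa5 points lie above in 6.

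Short promoter elements recognised by factors of these pathways are shown because members that carry them can be set beside their ratios. The sequences are RefSeq promoters of GRCm38.p6, from 250 bases before to 50 bases after the start, and 31 of the 34 members had one. Hyou1, Atf6 and Manf were not matched. The ER stress element, ERSE, was searched on both strands as CCAAT, then 9 bases of any kind, then CCACG. It was found in 39 of 32851 promoters (0.119%) and in those of 9 members: Hspa5, Hsp90b1, Dnajc3, Calr, Canx, Creld2, Pdia6, Syvn1 and Derl3. The form ERSE-II, which is ATTGG, 1 base of any kind and CCACG, was found in 12 promoters, with Herpud1 and Dnajb11 among them. In the lines that follow, the fixed letters of a match are in capitals, with 10 bases on either side, and strands are given with the coordinates. The matches of Canx, Syvn1 and Derl3 and another ERSE match of Hsp90b1 are not shown. A match is a description of the letters, not evidence that a factor binds.
Hspa5, chr2:34772015-34772053, plus strand: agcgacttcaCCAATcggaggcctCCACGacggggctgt
Creld2, chr15:88819510-88819548, minus strand: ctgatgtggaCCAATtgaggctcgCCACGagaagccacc
Dnajc3, chr14:118937817-118937855, plus strand: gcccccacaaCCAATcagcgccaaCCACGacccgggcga
Pdia6, chr12:17266481-17266519, plus strand: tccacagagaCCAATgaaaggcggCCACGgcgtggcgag
Hsp90b1, chr10:86705628-86705666, minus strand: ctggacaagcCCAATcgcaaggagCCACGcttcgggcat
Calr, chr8:84847065-84847103, plus strand: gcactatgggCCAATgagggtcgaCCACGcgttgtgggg
Herpud1, chr8:94386367-94386397, plus strand: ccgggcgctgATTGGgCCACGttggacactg
Dnajb11, chr16:22857842-22857872, plus strand: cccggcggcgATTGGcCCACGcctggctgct

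In Hspa5, whose ratio was above 0 in all 14 classes, the element ends 46 bases before the RefSeq start. The 250 bases before that start hold 4 CCAAT boxes over both strands and 1 CCACG, so 1 of the CCAAT boxes is part of a full element. The window, with the full element in capitals, is shown to place it near the start.
Hspa5, chr2:34771840-34772089, plus strand: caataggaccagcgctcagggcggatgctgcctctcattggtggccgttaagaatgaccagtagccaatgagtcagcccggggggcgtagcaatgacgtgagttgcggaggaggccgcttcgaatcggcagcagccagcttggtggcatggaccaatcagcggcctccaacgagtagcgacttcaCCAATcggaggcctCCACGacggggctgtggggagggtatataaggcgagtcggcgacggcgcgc

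The ATF4 side was searched with TGATGNAA, the C/EBP-ATF response element (CARE), on both strands. It is a short motif, found in 1304 promoters (3.97%), among them those of Chac1, Trib3, Asns, Nupr1 and Herpud1. The first 3 of these are the members that were lower with Gdf15 in AT2-like cells, and their matches are shown for that reason, with the fixed letters in capitals. Gdf15 had no match in this window. TGACGTGG, the core of the unfolded protein response element, was in 222 promoters (0.676%) and in 0 of the members.
Chac1, chr2:119351039-119351066, minus strand: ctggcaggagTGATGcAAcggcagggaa
Trib3, chr2:152344029-152344056, plus strand: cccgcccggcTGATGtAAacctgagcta
Asns, chr6:7693215-7693242, minus strand: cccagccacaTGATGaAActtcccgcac

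Grouped by these letters, the 11 members with an ERSE or ERSE-II had ratios above 0 for 10 of 11 in AT2-like cells, beside 42.2% of all pairs of gene and class. The count was 9 of 10 measured in general capillary-like and in aerocyte-like cells. It was all 10 measured in ciliated-like, mesothelial-like and adventitial fibroblast-like cells and in cluster 7, and all 8 measured in venous-like cells. Their median ratios ran from 0.15 in AT2-like and aerocyte-like cells to 0.48, reached in both cluster 7 and the adventitial fibroblast-like class. The 16 members with neither an ER stress element nor a CARE had medians of 0.03 in AT2-like, 0.17 in general capillary-like, -0.03 in ciliated-like, 0.37 in mesothelial-like, 0.22 in aerocyte-like, 0.43 in cluster 7, 0.22 in adventitial fibroblast-like and -0.03 in venous-like cells. In aerocyte-like cells that median was above the one of the members with an element. Of the measured members with neither, 10 of 16 were above 0 in AT2-like and 10 of 13 in general capillary-like cells. The counts were 8 of 16 in ciliated-like and 3 of 11 in venous-like cells. They were 11 of 14 in mesothelial-like and aerocyte-like cells and cluster 7, and 10 of 14 in adventitial fibroblast-like cells. The 4 members with a CARE alone had a median of -0.75 in AT2-like cells, with 0 of 4 above 0. Elsewhere 1 to 3 of them were measured, with medians of -0.36 in general capillary-like, -0.27 in ciliated-like, 0.54 in mesothelial-like, 0.99 in aerocyte-like, 0.85 in adventitial fibroblast-like and 0.65 in venous-like cells and of 0.08 in cluster 7. Other genes with the same letters had medians of -0.11 over 16 measured genes in AT2-like cells and -0.08 over 13 in mesothelial-like cells, beside -0.10 and -0.08 for all genes. Their medians were 0.15 over 10 genes in aerocyte-like cells and 0.14 over 9 in adventitial fibroblast-like cells, beside -0.05 and -0.02, and lay between -0.19 and -0.02 in the other 4 classes. The groups were formed after the ratios were known.

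**Figure D5:**
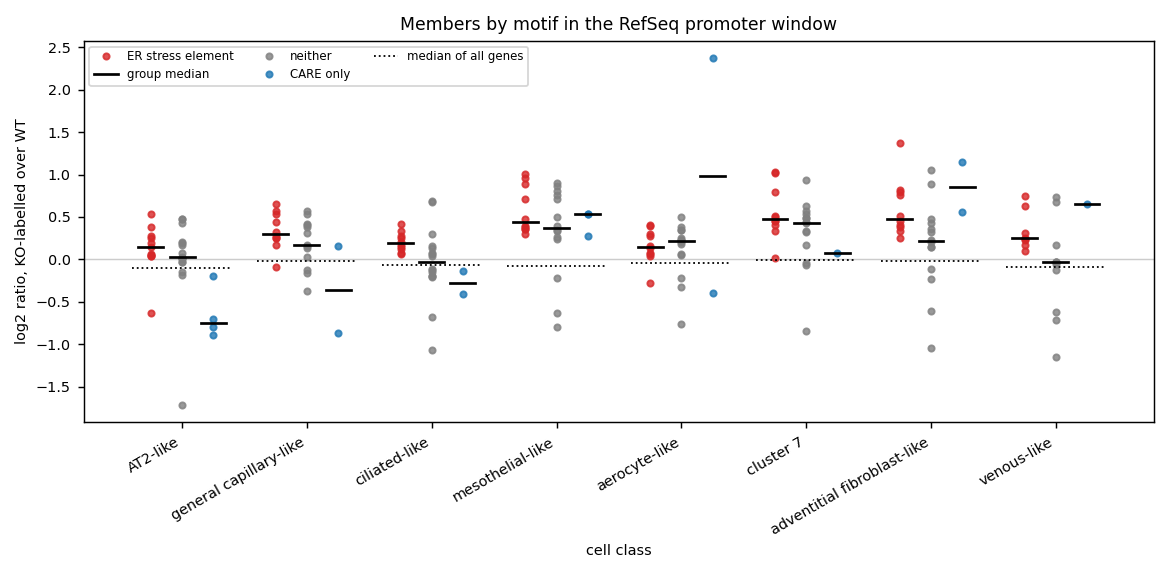
Log2 ratio of CPM (y axis), KO-labelled over WT, of the members in the 8 compared classes (x axis), split by motif in the RefSeq promoter: ER stress element (red), neither (grey) and CARE only (blue). Each point is 1 gene, bars are group medians and dotted lines the median of all genes. In AT2-like cells the median is 0.15 with an ER stress element and -0.75 with CARE only.

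Other parts of the secretory pathway stood nearer to the background than the members but leaned the same way. Ratios above 0 made up 65.1% of pairs for translocation and glycosylation and 60.4% for other ER folding genes. They made up 61.8% for other degradation and 63.2% for ER to Golgi transport genes, beside 42.2% for all genes. The interval lay above 0 in 17.5%, 10.4%, 13.3% and 14.5% in turn, beside 6.8%, and below 0 in 4.80%, 10.4%, 3.64% and 2.56%, beside 13.3%. For all genes 6.33% of pairs were higher and 10.8% lower past 1.5-fold, with a median of -0.06. Genes of translocation and glycosylation gave 229 measured pairs with a median ratio of 0.07, 8 of them higher and 3 lower past 1.5-fold. Of the other ER folding genes 9 of 164 pairs were higher and 6 lower, of the other degradation genes 7 of 165 were higher and 4 lower, and of ER to Golgi transport genes 12 of 234 were higher and 5 lower, with medians between 0.06 and 0.08. In AT2-like cells the highest of these were Pdia5, a disulphide isomerase, at 3.27 and 4.48 CPM (0.45), Ero1lb, an ER oxidase, at 6.97 and 9.14 CPM (0.39), and Srprb, a subunit of the signal recognition particle receptor, at 25.1 and 30.2 CPM (0.27). The lowest were Fkbp7, an ER prolyl isomerase, at 4.26 and 2.69 CPM (-0.66) and Sel1l3 at 20.2 and 15.7 CPM (-0.36).

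Other genes of the integrated stress response, a list of 35, gave 179 pairs with a median of -0.07, beside -0.06 for all genes. Past 1.5-fold, 15 pairs were higher, beside 6.33%, and 19 were lower, beside 10.8%. In AT2-like cells 2 of 32 measured were lower, beside 8.14% of all genes, and 0 were higher, beside 2.24%. The median there was -0.27, beside -0.10 for all genes. The 2 lower genes were Slc7a11, the cystine transporter, at 4.38 and 1.25 CPM (-1.81, -2.33 to -1.30), and Phgdh, the first enzyme of serine synthesis, at 2.67 and 1.31 CPM (-1.03, -1.59 to -0.48). Wfs1, an ER membrane protein, was highest at 7.13 and 10.3 CPM (0.53). Aminoacyl-tRNA synthetases, many of which are ATF4 targets, had 0 of 20 past 1.5-fold in either direction in AT2-like cells, with a median of -0.03.

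Cytosolic heat shock genes answer unfolded protein outside the ER, and cell handling can induce them. They were higher past 1.5-fold in 66 of 141 pairs, beside 6.33% of all pairs, and lower in 4, beside 10.8%. Their median was 0.57, beside -0.06 for all genes. In AT2-like cells Hspa8 stood at 609 and 1167 CPM (0.94, 0.91 to 0.96) and Hsph1 at 9.21 and 23.4 CPM (1.35, 1.14 to 1.56). Hspa8 was also higher in each of the 7 other compared classes, for example at 780 and 1499 CPM in mesothelial-like cells, while Bag3 stood at 33.2 and 32.7 CPM in AT2-like cells (-0.02). The part of handling or of the cytosolic response in the chaperone ratios was not tested. Mitochondrial UMIs made up 2.83% to 4.29% of the WT and 2.47% to 3.93% of the KO-labelled UMIs of the 8 classes.

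Classes with 20 to 99 cells in a library gave less precise ratios. Airway secretory-like cells (352 and 98 cells) had 8 of 30 measured members higher, beside 2.67% of all genes, and 2 lower, beside 26.2%. There Hspa5 stood at 396 and 681 CPM (0.78, 0.67 to 0.90), Creld2 at 29.0 and 66.0 CPM (1.19, 0.78 to 1.59) and Gdf15 at 17.9 and 4.76 CPM on 73 and 7 UMIs (-1.91, -3.28 to -0.80). An Hspa5 ratio above 0 beside a Gdf15 ratio below 0 was also seen in AT2-like and ciliated-like cells, in adventitial fibroblast-like cells, where Gdf15 had 34 and 4 UMIs (-1.05, -3.01 to 0.44), and in smooth muscle-like cells, where it had 24 and 1 UMIs. The opposition was not general. Gdf15 was above 0 in 2 of the 5 compared classes where it was measured, aerocyte-like cells and cluster 7 (0.53), and Hspa5 was above 0 there too. Alveolar fibroblast-like cells had 8 of 24 members higher, beside 11.4%, and 1 lower, beside 18.6%, with Hspa5 at 1530 and 2042 CPM (0.42).

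Other small classes departed from this. In B cell-like cells 5 of 24 members were higher, beside 14.1%, and 6 lower, beside 30.7%, with Hspa5 at 335 and 583 CPM (0.80) but Hsp90b1 at 1213 and 698 CPM (-0.80, -1.13 to -0.48). Smooth muscle-like cells had 1 of 23 higher, beside 13.7%, and 8 lower, beside 22%, and Ppp1r15a had 29 and 2 UMIs there. Neuroendocrine-like cells had 1 of 23 higher, beside 12.9%, and 3 lower, beside 23.8%. In neutrophil-like cells 7 members were measured, with 4 higher, beside 15%, and 1 lower, beside 36.6%. AT2 markers made up 8.04% of UMIs in KO-labelled and 0.850% in WT B cell-like cells, and 5.40% and 0.332% in neutrophil-like cells, so these ratios rest on sums that held different amounts of AT2 RNA.

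Across the 14 classes, levels of several folding genes followed those of Hspa5 within each library. By Pearson's r of log2(CPM + 10) over 14 classes, r with Hspa5 was 0.82 in WT and 0.92 in KO-labelled cells for Dnajc3, 0.85 and 0.77 for P4hb and 0.63 and 0.85 for Manf. It was 0.21 and 0.00 for Atf4, 0.12 and 0.29 for the co-chaperone Dnajb9 and 0.04 and 0.21 for Herpud1. Nupr1, an ATF4-side target, had 0.65 and 0.66. The classes share a library and free RNA and differ in depth, so these values describe the profiles and carry no test.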

How the data were processed

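Single-cell 3' RNA libraries of CD45.2-negative lung cells were analysed, 1 per genotype. The deposited matrices hold raw UMI counts per gene and barcode, which the authors made with Cell Ranger (7.0.0 and 7.1.0 are named in the submitters' processing notes) on mm10; whether intronic reads were counted is not given in the sources used here. The WT matrix held 11776 barcodes and 57028943 UMIs, the KO-labelled matrix 9771 and 51529241.

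Cells needed 500 or more genes and no more than 15% mitochondrial UMIs, and cells marked as doublets by Scrublet at an expected 8% were removed, 617 (5.69%) in the WT and 175 (1.92%) in the KO-labelled library. Of the 30 shared barcodes 27 were in kept cells. Both libraries were clustered together with scanpy 1.11.5 on 2000 variable genes, 30 components, 15 neighbours and Leiden resolution 1, without the 34 genes. Names needed 3 or more preset markers of a class in the 50 leading genes of a cluster, with no rival class ahead. Cluster 7 was chosen for comparison after the clusters were seen.

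UMIs were summed per class. Levels have exact Poisson intervals, ratios exact conditional binomial intervals and shares of cells exact Clopper-Pearson intervals, all at 95% and for counting error only. For every member in AT2-like cells, CPM or UMIs are given with a ratio or its interval. In other compared classes values were planned for the 4 highest and 4 lowest members with at least 100 UMIs, and not all of these are printed. Other values named there were chosen after they were seen. Members, gene lists and comparisons were chosen with earlier results of these data known. Gene positions are from GENCODE M21 and promoters from RefSeq (GRCm38.p6). Interval coverage was checked on simulated counts. No test or p-value was computed.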

Additional observations from a re-analysis of the deposited data

Results flagged for a closer look

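Results listed here had intervals on opposite sides of 0 in different classes; the difference between classes was not tested. Xbp1 had a ratio of -0.21 (-0.32 to -0.10) in ciliated-like cells, at 311 and 269 CPM, and of 0.54 (0.31 to 0.77) in general capillary-like cells, at 176 and 255 CPM; its interval lay above 0 in 5 classes and below 0 in 1. Nupr1 had a ratio of -0.41 (-0.48 to -0.33) in ciliated-like cells, at 792 and 598 CPM, and of 2.37 (0.93 to 4.14) in aerocyte-like cells, on 5 and 21 UMIs; its interval lay above 0 in 3 classes and below 0 in 2.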

How the results depend on the processing

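No ratio of a named member that was past 1.5-fold changed sign under the 9 alternatives run. There were 799 alternative values of 90 ratios of a gene in a class. Of these, 728 lay within the mean distance from the main ratio to the ends of its counting interval, and 71 lay further off. A reversal was counted only for ratios past 1.5-fold, and 0 were seen. Sign changes of smaller ratios, such as Eif2ak3 in AT2-like cells with TMM factors, were not counted. Missing values had under 20 UMIs after thinning or belonged to cluster 7 with the libraries clustered apart. With edgeR 4.0.16 TMM factors the median of the members in AT2-like cells was 0.17 in place of 0.05, because TMM would raise all ratios there by 0.12; in the other compared classes it would move them by -0.03 to 0.06. The median over alternatives ran from 0.00 to 0.17 in AT2-like, 0.35 to 0.49 in mesothelial-like, 0.37 to 0.49 in adventitial fibroblast-like and 0.04 to 0.28 in venous-like cells. The count of lower pairs, 18, was 9 with cells thinned to 1000 UMIs and 8 with a minimum of 100 UMIs, both of which leave fewer members measured; the count of higher pairs, 37, ran from 31 to 49. Clustering each library apart gave no value for cluster 7. No paired analysis was possible because each genotype has 1 library and no result comes from a test. Depth limits Trib3 and Derl3, which had under 20 UMIs in each other compared class.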
